A study of Mus musculus with 116 samples.

Results

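The genes described here are 9 genes that supply or guard the deoxynucleotides that a cell uses to copy its DNA: Rrm1, Rrm2, Tyms, Tk1, Dut, Dctpp1, Dck, Umps and Cad. They were taken by name as 9 of the 53379 genes in the count tables. They were followed in 55 of the 68 green libraries of a series of 116, namely those with at least 1000000 uniquely aligned reads that were at least 60% of all reads. Each library was made with bulk Smart-Seq2, a method that copies full-length mRNA of small inputs, from GFP+ cells sorted out of a pool of mouse cortices at embryonic day 12.5 (E12.5), E13.5, E16.5 or at birth (P0).

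Mosaic analysis with double markers (MADM) uses cassettes on chromosome 7 and Emx1-cre, which is active in the progenitors of the dorsal telencephalon, so only cells of that lineage recombine. In control-MADM (MADM7-GT/TG;Emx1-cre) green cells were Eed+/+. In Eed-MADM (MADM7-GT/TG,Eed;Emx1-cre) green cells were Eed-/- and sparse within a cortex that was otherwise heterozygous. In cKO-Eed-MADM (MADM7-GT,Eed/TG,Eed;Emx1-cre) green cells were Eed-/- and so were the other cells of the lineage around them. Green cells carried both copies of chromosome 7 from the father in all 3 paradigms, and Rrm1, Dctpp1 and Eed lie on that chromosome. EED is a core subunit of Polycomb repressive complex 2, which methylates histone H3 at lysine 27. At E12.5 there were 5 control-MADM libraries, 8 Eed-MADM libraries and 4 cKO-Eed-MADM libraries. In the same order 2, 2 and 4 libraries were used for E13.5, 3, 5 and 4 for E16.5, and 5, 9 and 4 for birth. Cells of E12.5 were sorted into another buffer than those of the later ages, so E12.5 was compared with no other age by a test. Each library came from a pool of 2 to 3 brains, and the labels do not say which libraries shared a litter. The labels name the strain of the mice as CD1, while the study's methods state a mixed background.

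Deoxynucleotides are made from ribonucleotides, and their supply limits how fast a cell can pass through S phase. Ribonucleotide reductase, formed by the large subunit RRM1 and the small subunit RRM2, carries out that reduction, and RRM2 is known to be made in S phase and destroyed as cells divide. Thymidylate comes from TYMS, which methylates dUMP, or from TK1, which phosphorylates thymidine. DUT cleaves dUTP, which provides dUMP and keeps uracil out of DNA, and DCTPP1 cleaves dCTP and its modified forms. DCK phosphorylates deoxycytidine and other deoxynucleosides taken up by the cell. CAD carries out the opening steps of pyrimidine synthesis and UMPS the closing ones. In the developing cortex the cells that divide are radial glia and intermediate progenitors, and projection neurons have left the cell cycle.

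The promoters of 4 members are shown, since Rrm2, Dctpp1 and Dck passed the test in both comparisons of cKO-Eed-MADM at P0 and Rrm1 encodes the partner subunit of RRM2. Each run spans 250 bases before to 50 bases after the annotated start, written 5′ to 3′ on the strand of the gene, from RefSeq on GRCm38.p6. Capitals mark matches to the motifs searched on both strands. The stretches are chr12:24708004-24708303 on the plus strand for Rrm2, chr7:102441445-102441744 on the plus strand for Rrm1, chr7:127260618-127260917 on the minus strand for Dctpp1 and chr5:88764763-88765062 on the plus strand for Dck.
Rrm2: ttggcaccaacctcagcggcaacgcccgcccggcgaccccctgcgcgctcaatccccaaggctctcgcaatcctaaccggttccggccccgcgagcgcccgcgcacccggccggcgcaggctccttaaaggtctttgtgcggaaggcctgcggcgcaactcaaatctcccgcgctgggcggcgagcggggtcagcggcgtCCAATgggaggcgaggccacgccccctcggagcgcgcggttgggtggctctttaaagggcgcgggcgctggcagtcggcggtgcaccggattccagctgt
Rrm1: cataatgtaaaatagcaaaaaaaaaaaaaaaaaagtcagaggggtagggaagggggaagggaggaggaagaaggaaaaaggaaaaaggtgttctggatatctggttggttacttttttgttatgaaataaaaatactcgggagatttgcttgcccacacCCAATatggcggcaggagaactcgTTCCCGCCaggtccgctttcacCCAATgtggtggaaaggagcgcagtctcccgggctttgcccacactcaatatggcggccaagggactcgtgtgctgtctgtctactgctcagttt
Dctpp1: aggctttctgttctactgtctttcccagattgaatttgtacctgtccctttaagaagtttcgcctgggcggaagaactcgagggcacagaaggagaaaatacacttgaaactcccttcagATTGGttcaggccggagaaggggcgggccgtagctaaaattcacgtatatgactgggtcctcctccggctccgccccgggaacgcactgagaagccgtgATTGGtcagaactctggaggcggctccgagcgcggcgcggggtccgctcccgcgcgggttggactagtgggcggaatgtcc
Dck: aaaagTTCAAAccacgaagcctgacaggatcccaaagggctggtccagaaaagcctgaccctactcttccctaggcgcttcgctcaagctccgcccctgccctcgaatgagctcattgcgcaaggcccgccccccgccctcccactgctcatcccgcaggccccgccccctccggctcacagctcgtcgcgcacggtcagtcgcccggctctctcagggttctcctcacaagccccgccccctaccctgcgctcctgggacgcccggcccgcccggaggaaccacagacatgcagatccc

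The motifs searched were TTTCCCGC, TTTGGCGC and TTCCCGCC for E2F, CCAAT for NF-Y and TTTGAA for the cell cycle homology region (CHR), and TTTCCCGC and TTCCCGCC can overlap each other. CCAAT stood in the promoters of 3 of the 9 members, Rrm1, Rrm2 and Dctpp1, and in 37.4% of all 32851 promoters of the same length. An E2F form stood in 1 of the 9, Rrm1, and in 3.21% of all promoters. TTTGAA stood in 2 of the 9, Dck and Umps, and in 17.9% of all promoters. No match says only that these letters are not in the window, and a match is not a measured binding site.

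The deleted gene was read in every library as a check of the labels. The levels below are in reads per 1000000 reads on genes, with library sizes scaled by TMM normalization (CPM). Eed was at 25.5 to 33.1 CPM in the 5 control-MADM libraries of P0. It was at 11.1, 15.4 and 19.1 CPM (lowest, median, highest) in the 9 Eed-MADM libraries and at 9.01 to 16 CPM in the 4 cKO-Eed-MADM libraries. The controls did not overlap with either mutant group at P0, E16.5 or E13.5. At E13.5 Eed was at 58.0 and 70.4 CPM in control-MADM, at 28.0 and 51.5 CPM in Eed-MADM and at 15.4 to 24.4 CPM in cKO-Eed-MADM. Both Eed-MADM libraries of E13.5 thus lay above all cKO-Eed-MADM libraries, and 1 of them lay near the controls. At E12.5 the Eed-MADM libraries spanned 31.8 to 87.0 CPM and 2 of them, replicates 1 and 7, lay within the control range of 81.2 to 157 CPM. The 55 libraries held 865832 to 7249098 reads on genes, and those of E12.5 no more than 2359317. At E13.5 the summed markers of radial glia were at 920 to 1588 CPM and those of projection neurons at 1467 to 4036 CPM over the 8 libraries, while 3 of 5 microglia markers (Cx3cr1, P2ry12 and C1qa) had no read in the controls. In such bulk libraries, fewer cells of a type and less RNA per cell cannot be told apart.

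All 9 members passed the filter on low counts at every age. Of levels per kilobase of exon, which allow a rough comparison of genes, that of Dctpp1 ranked highest and that of Cad lowest in all 12 groups of age and paradigm. The length was that of a gene's annotated exons merged over transcripts, so the order depends on which transcripts are annotated. In control-MADM at E13.5, Dctpp1 was at 289 ± 96.3 CPM per kb (SD, n = 2) and Cad at 15.2 ± 1.22 CPM per kb. Dut at 130.3 ± 36.2 and Rrm2 at 125.7 ± 46.0 CPM per kb followed Dctpp1, and those neighbours did not differ beyond their spread. Below them stood Tk1 at 75.3 ± 43.1, Dck at 58.5 ± 8.03, Rrm1 at 48.6 ± 1.69, Tyms at 40.7 ± 8.34 and Umps at 27.6 ± 4.01 CPM per kb. Tk1 fell from the fourth place of that order at E13.5 to the eighth at E16.5, where it was at 7.92 ± 2.07 CPM per kb (n = 3). Dck rose from the fifth place to the second, at 38.7 ± 2.96 CPM per kb.

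Most of these genes fell with age. Between E13.5 and E16.5 the levels of 8 members fell in control-MADM, of all 9 in Eed-MADM and of 8 in cKO-Eed-MADM, and from E16.5 to P0 1 member rose in control-MADM (Rrm2) and 3 in Eed-MADM (Rrm1, Rrm2 and Tk1). The summed markers of cell types changed over the same step, and their part in the fall was not tested. Those of radial glia were at 1431 and 1588 CPM in control-MADM at E13.5 and at 431 to 599 CPM at E16.5, and those of projection neurons at 1467 and 2779 CPM and then at 4212 to 4378 CPM, without overlap. In Eed-MADM radial glia markers went from 1209 and 1411 to 253 to 471 CPM and projection neuron markers from 2257 and 3420 to 3383 to 4484 CPM. In cKO-Eed-MADM both went down, from 920 to 1274 to 485 to 857 CPM for radial glia and from 3313 to 4036 to 1796 to 2534 CPM for projection neurons. Intermediate progenitor markers went from 709 and 860 to 454 to 559 CPM in control-MADM and from 888 and 1062 to 270 to 513 CPM in Eed-MADM. In cKO-Eed-MADM they went from 603 to 869 to 110 to 173 CPM.

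**Figure D1:**
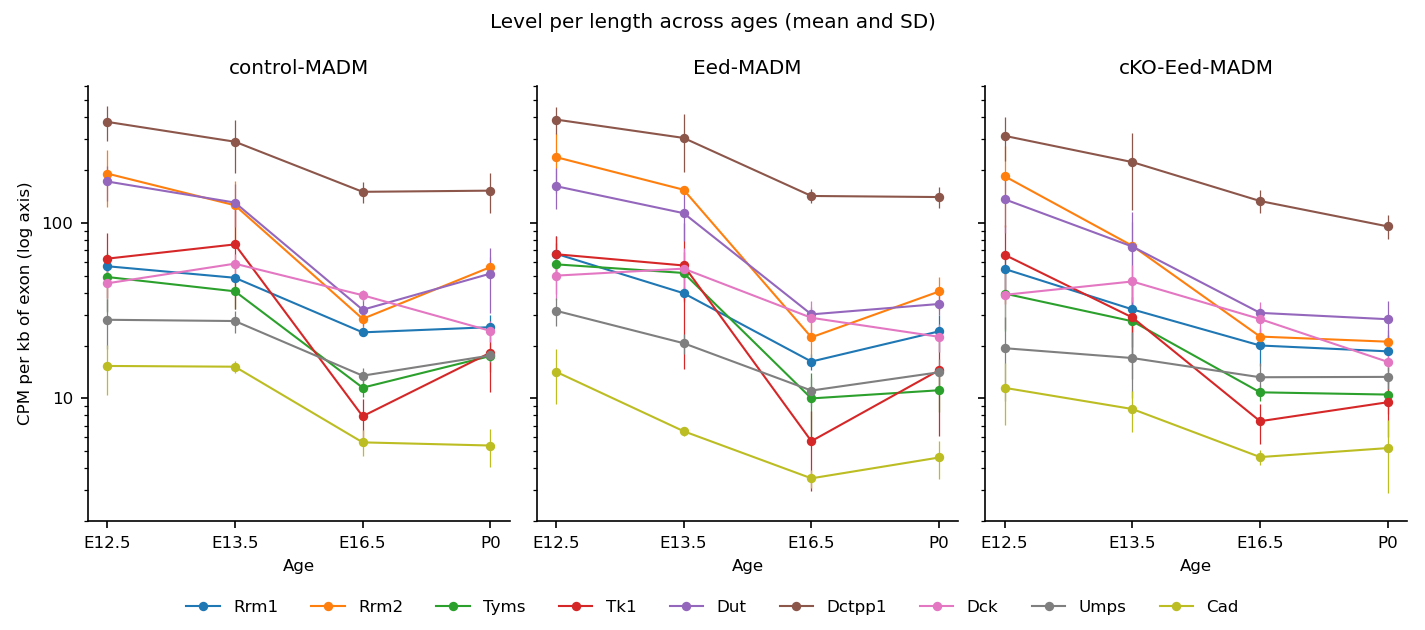
Mean level of each of the 9 genes in CPM per kb of exon (y axis, log scale) by age from E12.5 to P0 (x axis), with a panel for each paradigm, a line for each gene and bars showing the SD over libraries. Every line is lower at E16.5 than at E13.5, and Rrm2 stands higher at P0 than at E16.5 in control-MADM and Eed-MADM, while in cKO-Eed-MADM it stands at 22.5 and 21 CPM per kb.

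Rrm2, the S phase subunit of ribonucleotide reductase (ENSMUSG00000020649.11, chr12:24708241-24714146 on GRCm38), was at 204 and 347 CPM in the 2 control-MADM libraries of E13.5. At E16.5 the 3 control-MADM libraries gave 52.6, 63.2 and 70.9 CPM, and at P0 the 5 libraries gave 103, 107, 127, 127 and 148 CPM. The groups of neighbouring ages did not overlap. In the edgeR quasi-likelihood fit over the 38 libraries of E13.5 to P0, with Benjamini-Hochberg adjustment, the log2 fold change from E13.5 to E16.5 was -2.15 (SE 0.28, adjusted p = 8.0e-07), which left 22.6% of the E13.5 level. From E16.5 to P0 the level rose by 0.99 on the log2 scale (SE 0.23, adjusted p = 0.0029). In Eed-MADM the fall was -2.81 (adjusted p = 1.8e-10) and the rise 0.85 (adjusted p = 4.4e-04). In cKO-Eed-MADM the fall was -1.74 (adjusted p = 5.4e-07), and the change from E16.5 to P0 was -0.13 (95% interval -0.57 to 0.32, adjusted p = 0.753).

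Tk1, the thymidine kinase of cycling cells (ENSMUSG00000025574.13, chr11:117815526-117826092), was at 64.6 and 152 CPM in control-MADM at E13.5 and at 9.63, 9.74 and 14.8 CPM at E16.5. Its log2 fold change of -3.25 (SE 0.62, adjusted p = 2.9e-04) was the largest among the members and left 10.5% of the earlier level. The changes in Eed-MADM and cKO-Eed-MADM were -3.35 (adjusted p = 1.6e-05) and -1.98 (adjusted p = 0.0038). With 1 library left out these changes ran from -3.74 to -2.54 in control-MADM, from -3.97 to -2.25 in Eed-MADM and from -2.22 to -1.53 in the cKO paradigm, all past the threshold, and the smallest sizes came without replicate 1, replicate 2 and replicate 3 of E13.5. From E16.5 to P0 Tk1 rose in Eed-MADM by 1.34 on the log2 scale (SE 0.40, adjusted p = 0.0144), and in control-MADM the change was 1.22 (SE 0.52, adjusted p = 0.113), with 1 P0 library at 43.2 CPM and the others at 16 to 28.5 CPM. An antisense-strand gene, Afmid, overlaps exons of Tk1, and the counts were made without strand, so reads of the shared stretch cannot be assigned.

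Tyms, thymidylate synthase (ENSMUSG00000025747.12, chr5:30058202-30073617), and Dut, which supplies its substrate (ENSMUSG00000027203.15, chr2:125247190-125258608) both fell between E13.5 and E16.5. In control-MADM, Tyms went from 110.1 and 147 CPM to 33.3, 34.7 and 41.3 CPM, a log2 fold change of -1.82 (SE 0.34, adjusted p = 2.1e-04). Dut went from 226 and 337 CPM to 55.8, 69.6 and 82.0 CPM, a change of -2.03 (SE 0.34, adjusted p = 5.5e-05). Neither gene's ages overlapped. The same contrast gave -2.39 and -1.93 in Eed-MADM and -1.36 and -1.28 in cKO-Eed-MADM, all past the threshold, with the largest adjusted p at 7.4e-04.

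Rrm1, Dctpp1, Umps and Cad had smaller estimates. In control-MADM from E13.5 to E16.5 the log2 fold changes were -1.03 for Rrm1 (adjusted p = 0.0095), -0.95 for Dctpp1 (adjusted p = 0.0176), -1.04 for Umps (adjusted p = 0.0091) and -1.43 for Cad (adjusted p = 0.0017). Rrm1, the large reductase subunit (ENSMUSG00000030978.10, chr7:102441695-102469771), went from 189.5 and 199 CPM to 91.8, 95.1 and 98.3 CPM. Cad, which encodes the enzyme that opens pyrimidine synthesis (ENSMUSG00000013629.16, chr5:31054780-31078479), went from 104 and 116 CPM to 34.1, 40.4 and 47.9 CPM. With the first E13.5 control-MADM library left out, the adjusted p was 0.0619 for Rrm1, 0.386 for Dctpp1 and 0.132 for Umps, so that 5 members stayed past the threshold. The call of Dctpp1 in control-MADM was also lost without replicate 1 or 2 of E16.5 (adjusted p = 0.066 and 0.0645). In cKO-Eed-MADM the changes were -0.76 for Dctpp1 (adjusted p = 0.0149) and -0.92 for Cad (adjusted p = 0.0095), while Umps gave -0.38 (adjusted p = 0.252). Without E13.5 cKO-Eed-MADM replicate 3 the fall of Dctpp1 was -0.36 (adjusted p = 0.273), and in Eed-MADM, without E13.5 replicate 2, it was -0.67 (adjusted p = 0.203). The call of Rrm1 in cKO-Eed-MADM was lost without E13.5 replicate 3 (-0.45, adjusted p = 0.207) and without E16.5 replicate 1 or 3 (adjusted p = 0.0697 and 0.0997).

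Dck, the deoxycytidine kinase (ENSMUSG00000029366.10, chr5:88764996-88783281), was read at every age. Its level in control-MADM was 163 and 198 CPM at E13.5, then 111, 117 and 129 CPM at E16.5, and 63.6, 63.8, 78.7, 80.7 and 86.2 CPM at P0, with no overlap between ages. The log2 fold change from E13.5 to E16.5 was -0.60 (SE 0.27, adjusted p = 0.122) in control-MADM, -0.94 (adjusted p = 0.0040) in Eed-MADM and -0.72 (adjusted p = 0.0133) in cKO-Eed-MADM. From E16.5 to P0 it was -0.67 (SE 0.21, adjusted p = 0.029) in control-MADM and -0.84 (SE 0.21, adjusted p = 0.0043) in cKO-Eed-MADM, and -0.37 (adjusted p = 0.102) in Eed-MADM. The call in control-MADM was lost without any of 5 libraries, replicates 1, 2 and 3 of E16.5 and replicates 1 and 5 of P0, with adjusted p from 0.0559 to 0.119.

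The background of these age contrasts was as follows. From E13.5 to E16.5, 15.8% of 13926 genes passed the test in control-MADM and 7.32% passed as lower, against 8 of 9 members lower with a median log2 fold change of -1.43. In Eed-MADM 19.3% passed and 9.28% were lower, against 9 of 9 members with a median of -1.31. In cKO-Eed-MADM 17.5% passed and 7.60% were lower, against 8 of 9 members with a median of -0.92. From E16.5 to P0, 14.1% of genes passed in control-MADM, 8.31% as higher and 5.77% as lower, against 1 member higher (Rrm2) and 1 lower (Dck). In Eed-MADM 21.0% passed and 12.1% were higher, against 3 of 9 members (Rrm1 at 0.56 with adjusted p = 0.0229, Rrm2 and Tk1). In cKO-Eed-MADM 17.7% passed and 8.14% were lower, against 1 of 9 members (Dck). The contrasts share libraries within each paradigm. The number of E13.5 libraries, 2 in control-MADM and 2 in Eed-MADM, limits the precision of the earlier step.

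In control-MADM the E12.5 means of 7 members stood at 101% to 152% of their E13.5 means, that of Tk1 at 82.9% and that of Dck at 77.3%, with no test between these ages since the sort differed. Rrm2 was at 216, 349, 419, 489 and 616 CPM in the 5 control-MADM libraries of E12.5, and Dut at 229, 358, 404, 432 and 433 CPM. The ranges of Rrm2 at E12.5 and E13.5 overlapped.

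**Figure D2:**
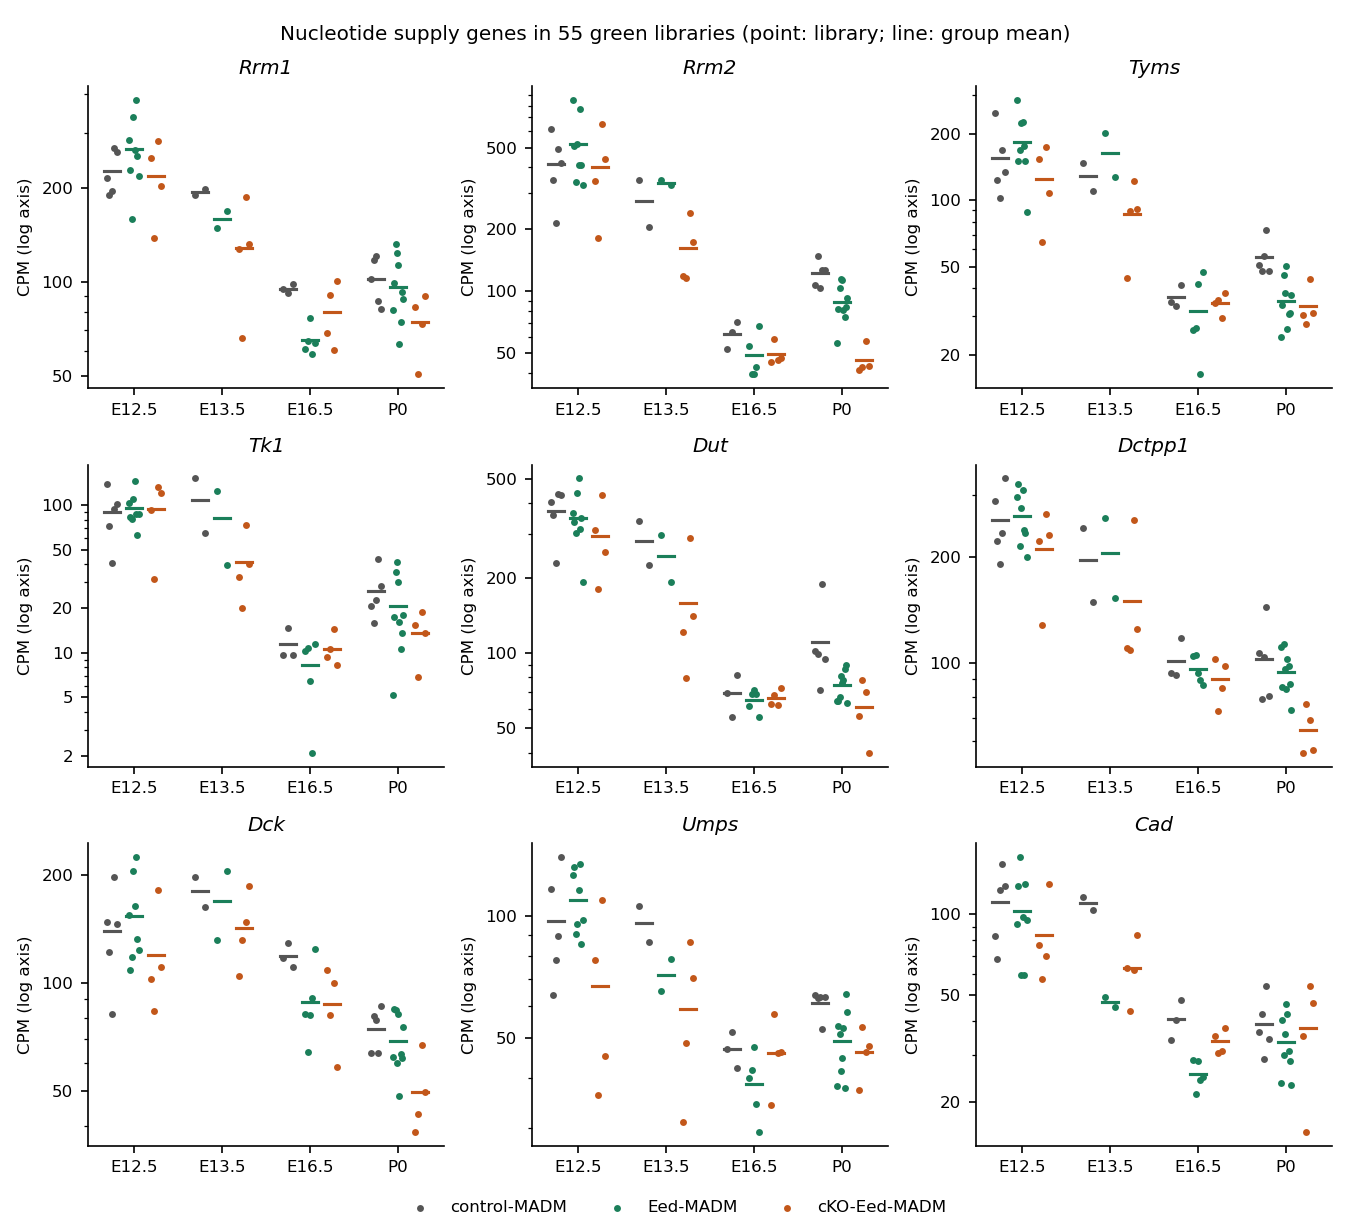
Level of each of the 9 genes in CPM (y axis, log scale, a panel for each gene) in every library, as points by age (x axis) and paradigm (color), with a line at each group mean. For each gene the ranges of the paradigms overlap at E12.5, and at P0 the 4 cKO-Eed-MADM points of Rrm2, at 41.4 to 57.2 CPM, lie below all 5 control-MADM points, which start at 103 CPM.

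The comparison of paradigms asks whether loss of EED altered these genes, and whether loss in sparse cells or in the whole lineage mattered. At P0, 5 of the 9 members were lower in cKO-Eed-MADM than in control-MADM, namely Rrm2, Dut, Tyms, Dctpp1 and Dck, and 3 of these, Rrm2, Dctpp1 and Dck, were also lower in cKO-Eed-MADM than in Eed-MADM. In edgeR 0 members passed the test in sparse Eed-/- cells against control-MADM at any age, and 0 in cKO-Eed-MADM before P0. Exceptions under other fits were Tyms in Eed-MADM at P0 in DESeq2, in the newer test of edgeR and with all green libraries, which also called Rrm2, and Tk1 in cKO-Eed-MADM at E13.5 without a filter on low counts (adjusted p = 0.0213).

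Rrm2 had the largest difference at P0. It was at 103, 107, 127, 127 and 148 CPM in control-MADM, at 55.9, 83.5 and 115 CPM (lowest, median and highest of 9) in Eed-MADM, and at 41.4, 42.9, 43.1 and 57.2 CPM in cKO-Eed-MADM. All cKO-Eed-MADM libraries lay below all controls, and 1 of them lay within the Eed-MADM range. Against control-MADM the log2 fold change was -1.45 (SE 0.19, 95% interval -1.84 to -1.06, edgeR adjusted p = 3.5e-06), a level at 36.6% of control. Against Eed-MADM it was -0.98 (SE 0.17, 95% interval -1.33 to -0.63, adjusted p = 2.1e-04), at 50.7%. In Eed-MADM against control-MADM it was -0.47 (95% interval -0.77 to -0.17, adjusted p = 0.0997). Without any of the 9 P0 libraries of these paradigms Rrm2 still passed the threshold against control-MADM, with log2 fold changes of -1.56 to -1.38. A processed pseudogene, Gm48455, matches 419 bases of Rrm2 at 95.5% identity and had 307 reads over the used libraries, against 34132 for Rrm2.

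Rrm1, which encodes the partner of RRM2, did not pass the test at P0. It was at 81.6, 86.7, 102, 118 and 121 CPM in control-MADM at P0, at 63.3, 92.6 and 132 CPM (lowest, median, highest) in Eed-MADM and at 50.5, 73.2, 82.9 and 89.8 CPM in cKO-Eed-MADM, and all groups overlapped. The log2 fold change in cKO-Eed-MADM was -0.50 against control-MADM (SE 0.20, adjusted p = 0.0734) and -0.41 against Eed-MADM (SE 0.18, adjusted p = 0.119). With the replicate block these became -0.68 (adjusted p = 0.0226) and -0.59 (adjusted p = 0.0381). The ratio of Rrm2 to Rrm1, each per kilobase, averaged 2.26 in control-MADM at P0 (range 1.56 to 2.85), 1.72 in Eed-MADM (1.25 to 2.33) and 1.19 in cKO-Eed-MADM (0.875 to 1.55). The same ratio averaged 1.19 in control-MADM and 1.16 in cKO-Eed-MADM at E16.5, and 2.60 and 2.40 at E13.5. These ratios are a description and were not tested.

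**Figure D3:**
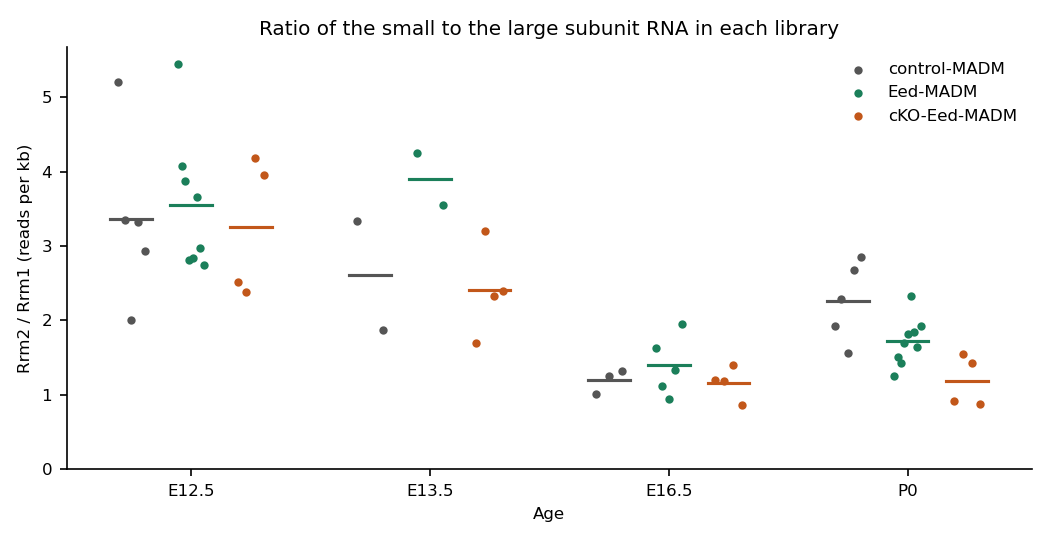
Ratio of Rrm2 to Rrm1 levels per kilobase of exon (y axis) in each library, by age and paradigm (x axis), with a bar at each group mean. Control-MADM falls from a mean of 2.60 at E13.5 to 1.19 at E16.5 and stands at 2.26 at P0, where cKO-Eed-MADM stands at 1.19.

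Of the thymidylate genes, Tyms and Dut passed the test and Tk1 did not. Tyms was at 47.7, 47.9, 51.2, 56.0 and 73.0 CPM in control-MADM at P0, at 24.1, 33.5 and 50.7 CPM (lowest, median, highest) in Eed-MADM and at 27.7, 30.2, 31.0 and 44.1 CPM in cKO-Eed-MADM. The cKO-Eed-MADM libraries lay below all controls and inside the Eed-MADM range. Its log2 fold change was -0.77 in cKO-Eed-MADM against control-MADM (SE 0.22, 95% interval -1.23 to -0.32, adjusted p = 0.0124). In Eed-MADM against control-MADM it was -0.66 (SE 0.18, 95% interval -1.03 to -0.29, adjusted p = 0.0554), and between the mutant paradigms -0.11 (95% interval -0.52 to 0.30, adjusted p = 0.743). For Tyms in Eed-MADM against control-MADM the adjusted p was 0.0174 in DESeq2, 0.0477 in the newer test of edgeR, 0.0472 without Eed-MADM replicate 3 and 0.0315 without Eed-MADM replicate 5.

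Dut was at 71.0, 94.7, 99.0, 102 and 189 CPM in control-MADM at P0, at 63.5, 75.8 and 89.8 CPM in Eed-MADM and at 39.9, 56.3, 70.3 and 77.8 CPM in cKO-Eed-MADM. The groups overlapped, and 1 control library stood far above the rest. The log2 fold change in cKO-Eed-MADM against control-MADM was -0.91 (SE 0.23, 95% interval -1.39 to -0.43, adjusted p = 0.0055) and without that library, replicate 5, it was -0.62 (adjusted p = 0.0188). Against Eed-MADM it was -0.32 (95% interval -0.75 to 0.11, adjusted p = 0.307), and in Eed-MADM against control-MADM -0.59 (adjusted p = 0.104). Tk1 was at 16, 20.7, 22.8, 28.5 and 43.2 CPM in control-MADM and at 6.85, 13.7, 15.5 and 18.8 CPM in cKO-Eed-MADM, with a log2 fold change of -0.97 (SE 0.44, 95% interval -1.88 to -0.06, adjusted p = 0.115). The Eed-MADM libraries of P0 ran from 5.22 to 41.2 CPM for Tk1 and overlapped with both.

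Dctpp1, which encodes the dCTP pyrophosphatase (ENSMUSG00000042462.4, chr7:127256959-127260709), was at 79.0, 80.5, 104, 107 and 144 CPM in control-MADM at P0, at 73.8, 96.1 and 113 CPM in Eed-MADM and at 55.6, 56.8, 68.9 and 76.4 CPM in cKO-Eed-MADM. The cKO-Eed-MADM libraries lay below all controls, and 1 of them overlapped with Eed-MADM. The log2 fold change was -0.72 against control-MADM (SE 0.18, 95% interval -1.10 to -0.35, adjusted p = 0.0050) and -0.59 against Eed-MADM (SE 0.17, adjusted p = 0.0135). In Eed-MADM against control-MADM it was -0.14 (95% interval -0.44 to 0.17, adjusted p = 0.677).

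Dck was at 63.6, 63.8, 78.7, 80.7 and 86.2 CPM in control-MADM at P0, at 48.3, 63.3 and 84.6 CPM in Eed-MADM and at 38.5, 43.2, 49.8 and 67.3 CPM in cKO-Eed-MADM. Of the 4 cKO-Eed-MADM libraries, 1 lay within the control range. The log2 fold change was -0.63 against control-MADM (SE 0.19, adjusted p = 0.0151) and -0.50 against Eed-MADM (SE 0.17, adjusted p = 0.036). Without cKO-Eed-MADM replicate 1 the adjusted p of Dck was 0.0642 against control-MADM and 0.147 against Eed-MADM, and that of Dctpp1 against Eed-MADM was 0.053. Without replicate 4 the values against Eed-MADM were 0.0662 for Dctpp1 and 0.096 for Dck, and without replicate 2 that of Dck was 0.085. The call of Dck against Eed-MADM was also lost without Eed-MADM replicate 2, 3, 5 or 9 (adjusted p from 0.0576 to 0.0599), under the replicate block (adjusted p = 0.0532) and with the size factors of DESeq2 (adjusted p = 0.053). Against Eed-MADM, Rrm2 was the only member called without replicate 1 or without replicate 4.

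Umps and Cad, the genes of pyrimidine synthesis proper, did not pass the test at P0. Umps (ENSMUSG00000022814.6, chr16:33954782-33967038, overlapped by the antisense gene Gm15829) was at 52.8, 62.7, 63.1, 63.2 and 64.1 CPM in control-MADM, at 37.6, 51.2 and 64.4 CPM in Eed-MADM and at 37.2, 46.3, 48.0 and 53.3 CPM in cKO-Eed-MADM. Its log2 fold change in cKO-Eed-MADM against control-MADM was -0.45 (SE 0.18, 95% interval -0.81 to -0.08, adjusted p = 0.0674), and without cKO-Eed-MADM replicate 2 it was -0.54 (adjusted p = 0.0378). Cad was at 28.8, 34.2, 36.5, 42.4 and 53.9 CPM in control-MADM and at 15.5, 35.3, 46.9 and 53.8 CPM in cKO-Eed-MADM, where its SD of 16.8 CPM around a mean of 37.9 CPM was the widest, relative to the mean, among the members. Its change was -0.09 with a wide interval of -0.65 to 0.48 (adjusted p = 0.852).

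**Figure D4:**
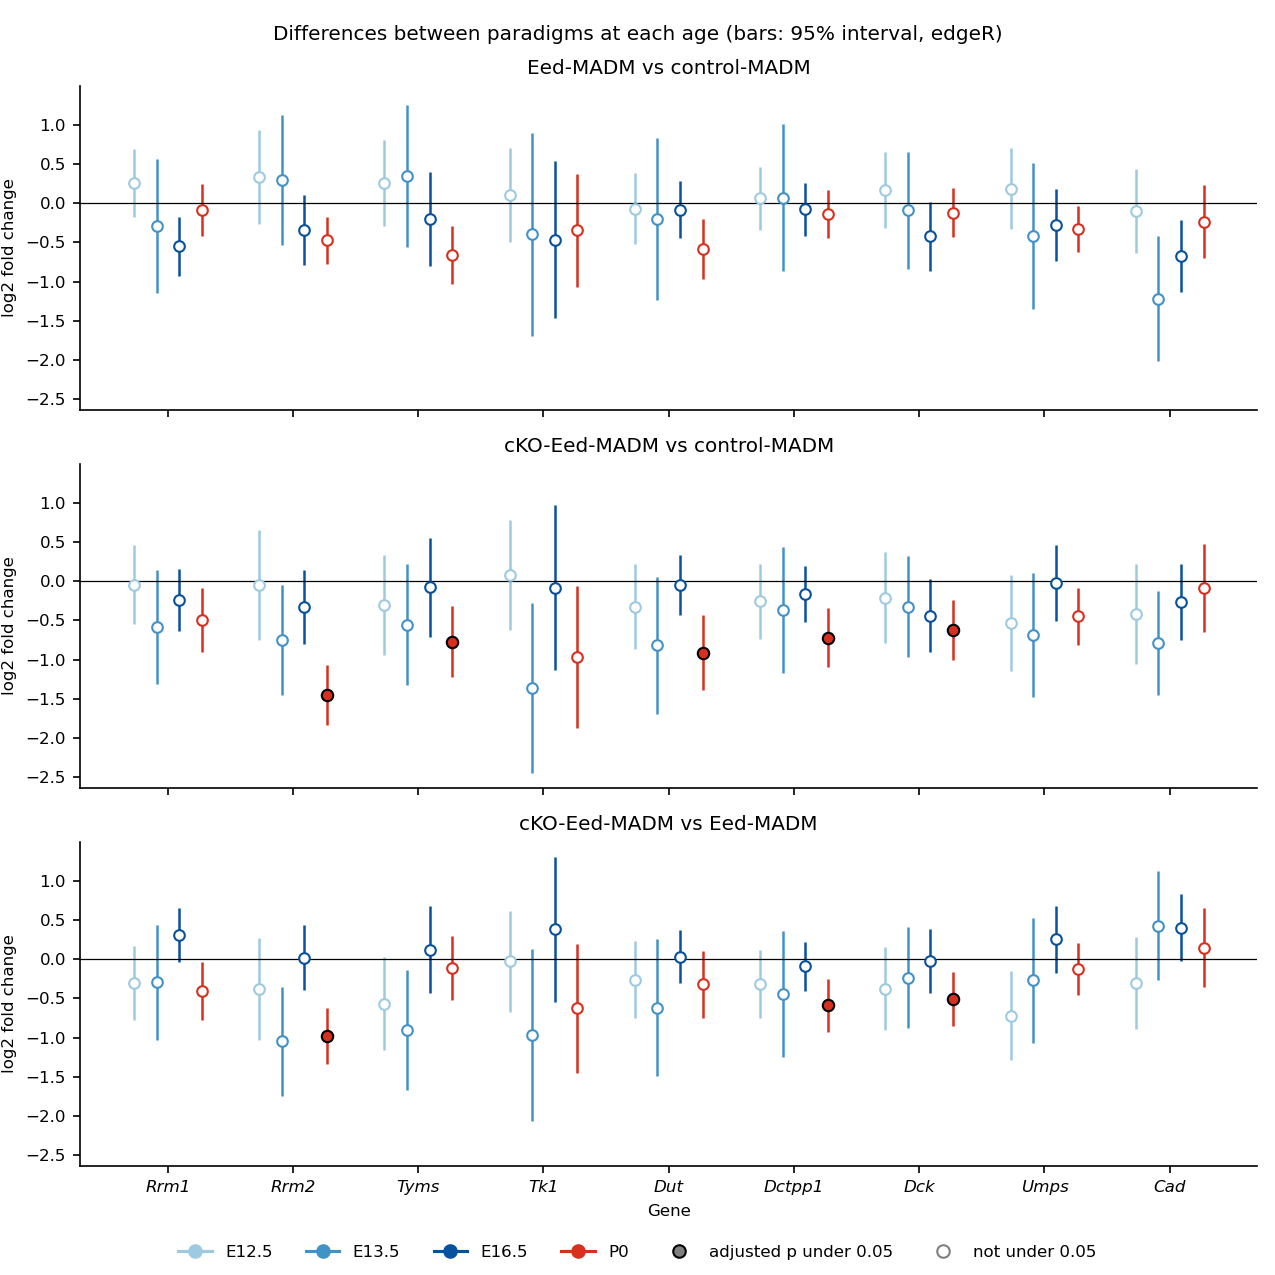
Log2 fold changes (y axis) of the 9 genes (x axis) in the comparisons of paradigms, a panel for each comparison and a color for each age, with bars showing the 95% interval and filled symbols marking an edgeR adjusted p under 0.05. Filled symbols stand at P0 only, for 5 genes in cKO-Eed-MADM against control-MADM and for 3 against Eed-MADM.

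Counts over all genes set the background. In cKO-Eed-MADM against control-MADM at P0, 24.2% of 14161 genes passed the test and 10.0% passed as lower, against 5 of 9 members lower with a median log2 fold change of -0.72 where the median of all genes was -0.01. All cKO-Eed-MADM libraries lay below all controls for 3 of 9 members (Rrm2, Tyms and Dctpp1) and for 6.02% of all genes. In cKO-Eed-MADM against Eed-MADM, 19.5% passed and 8.26% were lower, against 3 of 9 members with a median of -0.41. In Eed-MADM against control-MADM at P0, 1.75% of genes passed and 0 members did in edgeR, with 4 members (Rrm2, Tyms, Dut and Umps) and 17.2% of all genes at an unadjusted p under 0.05 and 1 member (Tyms) called by DESeq2. These contrasts share libraries, and their values are not independent of each other.

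At E16.5, 0 members passed in edgeR or DESeq2 in any comparison, where 0.255% of 13359 genes passed in Eed-MADM against control-MADM, 8.58% in cKO-Eed-MADM against control-MADM and 7.04% in cKO-Eed-MADM against Eed-MADM. At an unadjusted p under 0.05 stood 2, 0 and 0 members in these comparisons, the former being Rrm1 (-0.55, adjusted p = 0.245) and Cad (-0.67, adjusted p = 0.242), against 10.5%, 20% and 18.9% of all genes. Rrm1 was at 58.8, 61.1, 63.5, 64.5 and 76.3 CPM in the 5 Eed-MADM libraries of E16.5, below the 3 controls at 91.8, 95.1 and 98.3 CPM. Cad was at 21.5 to 28.6 CPM in the same 5 libraries, below the controls at 34.1 to 47.9 CPM. These 2 of 9 members, and 3.86% of all genes, lay below the controls without overlap. Rrm2 in cKO-Eed-MADM was at 45.1, 46.1, 47.4 and 58.8 CPM at E16.5, with a log2 fold change of -0.32 (95% interval -0.80 to 0.15, adjusted p = 0.481). Summed markers at E16.5 in cKO-Eed-MADM and control-MADM were at 247 to 498 and 12.5 to 33.4 CPM for interneurons. They were at 110 to 173 and 454 to 559 CPM for intermediate progenitors, and at 1796 to 2534 and 4212 to 4378 CPM for projection neurons. Those of astrocytes and oligodendrocyte precursors were at 79.8 to 381 and 19.0 to 29.3 CPM. At low levels, those of microglia were at 6.02 to 45.2 and 0.55 to 1.48 CPM and those of meninges at 10.1 to 25.0 and 4.67 to 9.53 CPM. Those of radial glia overlapped, at 485 to 857 and 431 to 599 CPM, as did those of red blood cells and of endothelium. The part of these markers was not tested.

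At E13.5 the estimates for cKO-Eed-MADM were wide. All 9 members lay below 0 against control-MADM, with a median log2 fold change of -0.69 where the median of all genes was 0.05, and 0 passed the test in edgeR or DESeq2. Rrm2 (-0.75, 95% interval -1.46 to -0.05), Tk1 (-1.36, 95% interval -2.45 to -0.27) and Cad (-0.79, 95% interval -1.45 to -0.13) had an unadjusted p under 0.05, as had 10.3% of all genes, and the lowest adjusted p was 0.356. The summed markers of projection neurons were at 3313 to 4036 CPM in these cKO-Eed-MADM libraries and those of radial glia at 920 to 1274 CPM, without overlap with the controls given above, and their part was not tested. Rrm2 was at 116, 118, 174 and 239.8 CPM in cKO-Eed-MADM and at 204 and 347 CPM in control-MADM, and Tk1 at 20.0, 32.5, 40.0 and 74.0 CPM against 64.6 and 152 CPM, with overlap for both. The share of all genes that passed was 0.0372% in that comparison of 13448 genes, 0.0223% in cKO-Eed-MADM against Eed-MADM and 0% in Eed-MADM against control-MADM. Against Eed-MADM, Rrm2 and Tyms had an unadjusted p under 0.05 (-1.05 and -0.90) with 5% of all genes, and in Eed-MADM against control-MADM Cad did (-1.22, 95% interval -2.01 to -0.42, adjusted p = 0.637) with 6.13% of all genes. Cad was at 45.3 and 49.1 CPM in these Eed-MADM libraries, below its controls at 104 and 116 CPM. With 2 libraries in each group, 3 of 9 members (Rrm1, Umps and Cad) and 15.9% of all genes lay below the controls without overlap.

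At E12.5, 0 members and 0% of 18100 genes passed in edgeR in each of the 3 comparisons, and DESeq2 called 0 members. The members with an unadjusted p under 0.05 numbered 0 in Eed-MADM against control-MADM, 0 in cKO-Eed-MADM against control-MADM and 1, Umps at -0.72 (95% interval -1.29 to -0.15), in cKO-Eed-MADM against Eed-MADM, where 3.81%, 7.14% and 7.22% of all genes did. Without the 2 Eed-MADM libraries whose Eed lay in the control range 0 members passed in either comparison of Eed-MADM, with log2 fold changes of Rrm2 of 0.01 against control-MADM, from 0.33 with all libraries, and of -0.07 in cKO-Eed-MADM against Eed-MADM, from -0.38. The depth of these libraries was lower and their spread higher, with a biological coefficient of variation, the spread between libraries beyond counting noise, of 0.622 against 0.314 at P0. Their summed red blood cell markers were uneven, at 5.72 to 16747 CPM in control-MADM, 23.6 to 68785 in Eed-MADM and 163 to 95483 in cKO-Eed-MADM. Meninges markers were at 32.5 to 1326, 32.9 to 1762 and 31.2 to 2490 CPM in the same order. The part of these cells was not tested. For Rrm2 the 95% interval in cKO-Eed-MADM against control-MADM ran from -0.74 to 0.66.

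Whether the effect of the paradigm differed between ages was tested as an interaction over the 38 libraries. For cKO-Eed-MADM against control-MADM at P0 minus the same at E16.5, Rrm2 gave -1.11 (SE 0.32, 95% interval -1.76 to -0.47, adjusted p = 0.073) and Dut -0.84 (adjusted p = 0.372). In edgeR 0 members passed and 1.17% of genes did, 2 members and 11.8% of all genes had an unadjusted p under 0.05, and DESeq2 called 1, Rrm2 (adjusted p = 0.0493). For E16.5 minus E13.5 in the same paradigms 0 members passed, 0 members and 16.6% of all genes had an unadjusted p under 0.05, and 4.30% of genes passed. For Eed-MADM against control-MADM at P0 minus E16.5 0 members passed and 0 had an unadjusted p under 0.05, against 0.0215% and 10% of genes, and DESeq2 called 0 members in both.

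Other genes of nucleotide metabolism were taken as fixed lists. In cKO-Eed-MADM against control-MADM at P0, 2 of 13 genes of pyrimidine and thymidylate synthesis passed as lower, among them Dtymk, thymidylate kinase (-0.49, adjusted p = 0.011). The list's median was -0.29. Of 15 genes of purine synthesis 2 were lower, Gart (-0.51, adjusted p = 0.045) and Adss (-0.50, adjusted p = 0.042), with a median of -0.17. Of 10 tested genes of salvage and of ribonucleotide reductase outside S phase 1 was lower, the uridine-cytidine kinase gene Uck2 (-0.81, adjusted p = 0.0014), with a median of -0.16. Of 11 tested genes of nucleotide breakdown 1 was higher, the uridine phosphorylase gene Upp1 (2.21, adjusted p = 0.0018), with a median of -0.04. Over all genes tested in that comparison, 10.0% passed as lower and 14.2% as higher.

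The counterparts of the members outside S phase were read beside them. Rrm2b, the small reductase subunit of resting cells, had a log2 fold change of 0.99 in cKO-Eed-MADM against control-MADM at P0 (SE 0.51, adjusted p = 0.17), and Tk2, the mitochondrial thymidine kinase, -0.47 (SE 0.20, adjusted p = 0.085). Samhd1, which encodes a hydrolase of deoxynucleotides, gave 0.22 (SE 0.38, adjusted p = 0.72). None of these passed the test. Against Eed-MADM, Mthfd2, a mitochondrial folate enzyme gene, was higher (0.85, adjusted p = 0.0097), and Uck2 and Adss were lower (-0.88, adjusted p = 3.5e-04, and -0.47, adjusted p = 0.043).

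The replication and mitosis lists were compared beside the members. In cKO-Eed-MADM against control-MADM at P0, 12 of 31 DNA replication genes passed as lower and 0 as higher, with a median log2 fold change of -0.51. Among them were Mcm7 and Mcm2 of the replicative helicase (-0.75, adjusted p = 2.5e-04, and -0.95, adjusted p = 0.0029), Gmnn, whose protein geminin restrains origin licensing (-1.71, adjusted p = 0.0028), and the sliding clamp Pcna (-0.51, adjusted p = 0.048). Of 22 mitosis genes 16 were lower and 0 higher, with a median of -1.30, such as Aurkb (-2.03, adjusted p = 1.8e-04), Ccna2 (-1.57, adjusted p = 2.9e-04), Top2a (-1.66, adjusted p = 0.0019) and Mki67 (-2.12, adjusted p = 0.036). The estimate for Rrm2 was -1.45. Against Eed-MADM, 3 of 31 replication genes and 10 of 22 mitosis genes were lower, with medians of -0.19 and -1.04. Of all genes tested, 8.26% passed as lower there. In Eed-MADM against control-MADM 1 of 31 (Gmnn at -1.36, adjusted p = 0.022) and 0 of 22 passed, where 1.75% of all genes did.

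**Figure D5:**
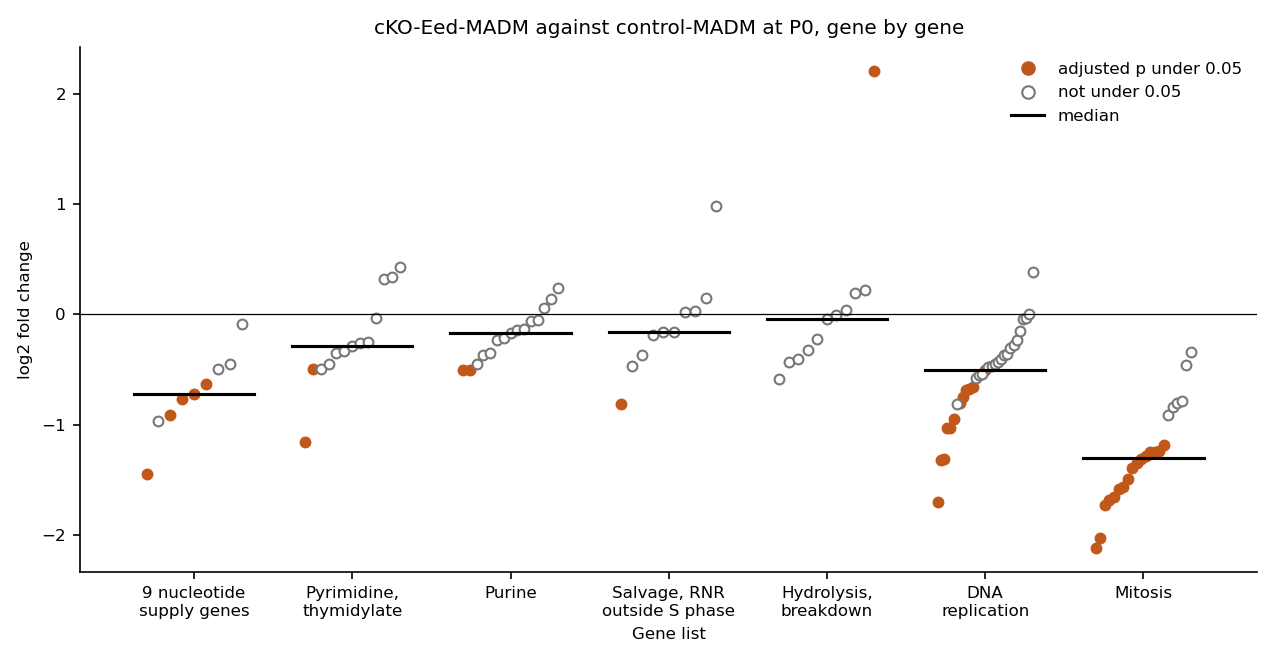
Log2 fold changes in cKO-Eed-MADM against control-MADM at P0 (y axis) of each tested gene of the 9 members and the other lists (x axis), with filled points at an edgeR adjusted p under 0.05 and a bar at each median. The members' median of -0.72 lies between those of the replication genes, -0.51, and the mitosis genes, -1.30, and the medians of the synthesis, salvage and breakdown lists lie between -0.29 and -0.04.

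The lists were followed over age as well. From E13.5 to E16.5, 24, 27 and 22 of 31 replication genes and 15, 21 and 18 of 22 mitosis genes were lower in the controls, in Eed-MADM and in the cKO paradigm, against 4, 4 and 3 of 13 pyrimidine genes, 5, 5 and 2 of 15 purine genes and 0, 0 and 0 of 10 salvage genes. Of all genes, 7.32%, 9.28% and 7.60% were lower. In control-MADM the fall of Rrm2 (-2.15) and Tk1 (-3.25) compares with -2.92 for Mcm5 (adjusted p = 2.0e-07) and -2.74 for Cdk1 (adjusted p = 1.9e-05). From E16.5 to P0 the mitosis genes that rose numbered 3, 14 and 0 of 22 in the same order, and the replication genes that rose 7, 11 and 3 of 31. Of all genes, 8.31%, 12.1% and 9.58% rose. Pcna rose from E16.5 to P0 in control-MADM (0.96, adjusted p = 0.0064).

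Markers of cell types moved with the P0 result, and their part in it was not tested. The summed level of 6 radial glia markers was 703 to 1510 CPM in control-MADM, 537 to 1130 in Eed-MADM and 1047 to 2214 in cKO-Eed-MADM, with 2 of 6 genes higher in cKO-Eed-MADM than in control-MADM. That of 3 intermediate progenitor markers was 196 to 342, 121 to 266 and 55.9 to 95 CPM, with 3 of 3 lower. That of 6 projection neuron markers was 1271 to 2538, 1537 to 2395 and 441 to 855 CPM, with 4 of 6 lower. Markers of cells outside the Emx1 lineage also differed. Those of microglia summed to 5.90 to 17.7 CPM in control-MADM, 1.24 to 90.9 in Eed-MADM and 103 to 229 in cKO-Eed-MADM, with 4 of 4 tested genes higher, and those of meninges to 8.07 to 14.5, 7.00 to 28.7 and 87.8 to 227 CPM, with 4 of 4 higher. The interneuron markers were at 351 to 864, 317 to 580 and 164 to 247 CPM with 4 of 6 lower, and those of astrocytes and oligodendrocyte precursors at 818 to 1994, 648 to 2141 and 1267 to 2581 CPM with 3 of 6 higher. Red blood cell markers were at 2.13 to 221, 1.40 to 326 and 1.08 to 52.1 CPM with 0 of 5 called, where Hbb-y had no read in the controls, and endothelial markers at 2.29 to 12.6, 1.76 to 10.6 and 9.89 to 40.8 CPM with 0 of 1 called, where Kdr had no read in the controls. The sum of the 9 members in the same order was 644 to 833, 466 to 662 and 393 to 500 CPM.

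Across the 38 libraries of E13.5 to P0, the members followed each other to unequal degrees. Pearson's r of log2 CPM, given as a description over libraries that share age and paradigm, ranged from 0.42 to 0.88 over the 36 pairs of members with a median of 0.69. Against the mean of the other 8 members, r was 0.92 for Rrm2, 0.91 for Tyms and 0.65 for Dck. After the mean of each age and paradigm was subtracted, the pairs ranged from -0.19 (Dut with Dck) to 0.73 (Dut with Dctpp1) with a median of 0.31, and r was 0.78 for Rrm2 and 0.19 for Dck. Of the 13926 genes tested, those most like the mean of the members were H2afx (0.93), Spc24, Selenoh and Hist1h2ap (0.92 each), and Cks1b, Mcm2, Ube2c and Cks2 (0.91 each). After centring they were Cnih1 (0.76), Txndc12 (0.75), Mcm2 and Cks2 (0.74 each), Selenoh and Srsf9 (0.72 each), and Hmgb2 and Echs1 (0.71 each), so that Mcm2, Cks2 and Selenoh stood in both sets.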

How the data were processed

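Sorted green, yellow and red cells were profiled by bulk Smart-Seq2, which uses no molecular identifiers. The authors deposited raw read counts per gene for 116 libraries, made with STAR in its gene count mode on mm10, the GRCm38 assembly, with reads that align to several places left out. Which annotation release was counted is not given in the sources used. GENCODE M21 gave symbols and coordinates for 53274 of 53379 identifiers. The column of counts made without regard to strand was used. Rows that name no gene stayed out of library sizes and tests, and among uniquely aligned reads of the used libraries 13.4% to 40.1% fell outside genes or on several of them. The libraries held 865832 to 7249098 reads on genes, and those of E12.5 no more than 2359317. Of 68 green libraries 13 fell under the limits of 1000000 uniquely aligned reads or 60%, and 48 red or yellow libraries were not used.

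Groups came from the labels, which write the embryonic ages as days 12, 13 and 16. The labels give the strain as CD1 and the study's methods a mixed background. Where nothing says that libraries came from separate litters, p-values measure only the spread between these libraries.

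CPM is reads per 1000000 reads on genes, with library sizes scaled by TMM over all 55 used libraries. Genes with a mean count over 1 at E12.5 or over 10 at later ages were tested with the robust quasi-likelihood test of edgeR 4.0.16 (R 4.3.3), with TMM normalization and the 3 paradigms of an age in 1 fit. Ages were compared in 1 fit of the 38 libraries of E13.5 to P0. Calls are at an adjusted p under 0.05 (Benjamini-Hochberg over all genes tested). SE and 95% intervals come from the same fits. The edgeR test was run beforehand on simulated counts with known changes, drawn from the P0 libraries with 1 dispersion for all genes. That setting does not cover the groups of 2 libraries at E13.5. Nor does it cover the wider spread of E12.5 and E13.5, with a biological coefficient of variation of 0.622 and 0.441.

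Alternatives were DESeq2 1.42.0, edgeR with the size factors of DESeq2, a fit unfiltered for low counts, all green libraries, only the 2 groups compared, the replicate block, each library of groups of 2 to 5 left out in turn and, chosen after seeing the data, the newer quasi-likelihood test of edgeR, each library of the larger Eed-MADM groups of E12.5 and P0 left out in turn, and E12.5 without the 2 Eed-MADM libraries whose Eed lay in the control range. Whether the replicate numbers of the labels pair the samples was left undecided, since the correlations were low and mixed. Those of same-numbered libraries ran from -0.17 to 0.38. Their median was 0.055 for P0 and 0.025 for E16.5, against -0.017 and -0.007 for libraries with different numbers. For E13.5 and E12.5 it was -0.080 and -0.019, against 0.062 and -0.003. The members and lists were chosen with earlier results of these data known. Named were the 9 members, Eed, Mki67, Top2a, Pcna, Rrm2b, Tk2, Samhd1, up to 3 called genes per list and direction with the lowest adjusted p, and the 8 genes most like the members, with 1 list gene not reported here. Near copies were searched with blastn 2.17.0.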

Additional observations from a re-analysis of the deposited data

Results flagged for a closer look

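A library was marked where its level stood apart from the rest of its group by Dixon's criterion, which was applied to 81 groups of 4 to 10 libraries. It marked 5 groups, and chance marks about 1 in 20, which is 4.05 of 81. In edgeR no difference between ages in the effect of a paradigm passed the test for a member, while for Rrm2 in cKO-Eed-MADM at P0 minus E16.5 the adjusted p was 0.0493 in DESeq2 and 0.0319 without a filter on low counts.

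Rrm2 was at 58.8 CPM in cKO-Eed-MADM replicate 2 of E16.5, with the next library at 47.4 CPM, and at 57.2 CPM in cKO-Eed-MADM replicate 3 of P0, with the next at 43.1 CPM. Both were the highest of their groups, and both lay below or within the range of the controls of their age. Dut was at 189 CPM in control-MADM replicate 5 of P0, with the next library at 102 CPM, and Umps in the same library was the lowest of its group at 52.8 CPM, with the next at 62.7 CPM. Dctpp1 was at 254 CPM in cKO-Eed-MADM replicate 3 of E13.5, with the next library at 125 CPM.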

How the results depend on the processing

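No value changed direction while called. Of the single values of members under the alternatives, 2971 stayed on their side of the threshold, 65 fell out of it and 15 passed it. Values called in neither fit count among the 2971 whatever their direction, and some of these changed sign. With 1 library left out, Tk1 in Eed-MADM against control-MADM at E13.5 ran from -1.47 to 0.35. Against control-MADM at P0 the count of members called in cKO-Eed-MADM was 5 under every alternative fit but the replicate block, where it was 6 (Rrm1 was added), and was 4 to 6 with 1 library left out. Against Eed-MADM it was 3 under the replicate block (Rrm1 in, Dck out), 2 with the size factors of DESeq2 (Dck at an adjusted p of 0.053) and 1 to 3 with 1 library of either paradigm left out. In Eed-MADM against control-MADM at P0, DESeq2 and the newer test of edgeR each called 1 (Tyms) and the fit of all green libraries 2 (Rrm2 and Tyms), and it was 0 to 1 with 1 library left out (Tyms without Eed-MADM replicate 3 or 5). In cKO-Eed-MADM against control-MADM at E13.5 the fit without a filter called 1 (Tk1). The interaction of cKO-Eed-MADM at P0 minus E16.5 called 1 (Rrm2) in DESeq2 and 1 without a filter, and that at E16.5 minus E13.5 called 0 to 1 with 1 library left out (Dut without E13.5 cKO-Eed-MADM replicate 3, adjusted p = 0.0499). With all green libraries, shallow ones included, the members called from E13.5 to E16.5 were 2 in control-MADM, 2 for the sparse cells of Eed-MADM and 1 in cKO-Eed-MADM, and from E16.5 to P0 they were 0, 0 and 0. The cause was not tested, and the share of all genes called in that fit is not given here. These counts therefore cannot show a loss of calls particular to the members. With 1 library left out, the members called from E13.5 to E16.5 were 5 to 8 in control-MADM and 6 to 9 in both other paradigms, and from E16.5 to P0 they were 1 to 2 in control-MADM and 1 to 3 in Eed-MADM, with Rrm2 alone left without E16.5 Eed-MADM replicate 4. The replicate block called 0 members in every other comparison of paradigms. At E12.5 the depth and spread of the libraries limit what can be seen, and their levels of red blood cell markers were uneven.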
